A study of Mus musculus with 24 samples.

Results

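The proteasome is the barrel-shaped protease that degrades ubiquitin-tagged proteins in the cytosol and nucleus. The genes described here are all those whose annotated symbol begins with Psma, Psmb, Psmc, Psmd or Psme followed by a digit, each read on the 1 probe set that had the highest mean signal. This rule found 44 of the 18194 genes with a probe set of a single symbol. They comprised 7 alpha and 7 beta subunits of the constitutive core, 9 subunits of the base and 8 of the lid of the regulatory particle, and 4 immune subunits. The rest were 2 other activators, 3 assembly chaperones of the regulatory particle, 2 subunits known from the testis (Psma8) and the thymus (Psmb11), and 2 genes whose symbols match the rule but which encode no subunit (Psmc3ip and Psme3ip1).

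In the core particle, rings of alpha subunits gate a chamber lined by rings of beta subunits, of which Psmb5, Psmb6 and Psmb7 carry the active sites. The regulatory particle recognises ubiquitin, removes it with the lid enzyme Psmd14 and unfolds the substrate with the ATPases of the base, Psmc1 to Psmc6. Interferon-responsive cells exchange the 3 active beta subunits for Psmb8, Psmb9 and Psmb10, which gives the immunoproteasome, and cap it with an activator that contains Psme1. When proteasome capacity falls short, mammalian cells raise the constitutive subunit genes together through the transcription factor encoded by Nfe2l1.

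The 24 arrays carry liver RNA from male B6C3F1 mice that were 7 to 10 weeks old on arrival. The DEHP groups received diethylhexylphthalate, a plasticiser and peroxisome proliferator, in corn oil by oral gavage. The labels give the dose as 1150 mg/kg at 2, 8 and 24 h and as 1150 mg/kg/day at 72 h. The control groups received corn oil alone in an equal volume (10 ml/kg). Dosing is described as repeated every 24 h for 3 days. There were 3 arrays in each of 8 groups, DEHP or corn oil at 2, 8, 24 and 72 h. The times differ in hour of day and number of doses as well. In a difference between times these cannot be told apart from the time itself. Whether the 3 arrays stand for separate mice is not stated in the labels, so p-values measure only the spread between these samples, which may be technical.

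Values are log2 signals. Array medians lay between 6.46 and 6.55, and arrays of a group correlated with r of 0.989 to 0.996 across probe sets. The livers carried the known DEHP response: of the measured genes Pdk4, Cyp4a14, Acot1 and Ehhadh, 4 were higher at 2 and 8 h and 3 at 24 and 72 h. Corn oil replicate 3 and DEHP replicate 2 at 8 h share the RC number 14 in their titles. In corn oil replicate 2 at 8 h the 3' probe set of Actb exceeded the 5' one by 1.46, against 0.816 in the next array. Corn oil replicate 1 at 72 h had the highest neutrophil markers. The mean log2 signal of 4 exocrine pancreas markers was 10.85 in DEHP replicate 1 at 2 h and 8.89 in DEHP replicate 1 at 72 h, against 9.20 in corn oil replicate 2 at 2 h and 9.74 in corn oil replicate 1 at 72 h. In the other 20 arrays it was at most 8.08. The tests were repeated without the first 4 of these arrays and with each array left out in turn, and the calls that differ are given beside the results.

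The proteasome genes of DEHP livers differed from those of corn oil livers by small amounts. After limma's moderated t test with Benjamini-Hochberg adjustment over 18194 genes, 0 members were called at 2 h, 2 at 8 h (Psmd4 higher and Psmb9 lower), 1 at 24 h (Psmb4 higher) and 0 at 72 h, at an adjusted p under 0.05. Over all genes, 0.616% were called higher and 0.214% lower at 2 h, 1.28% and 2.86% at 8 h, 0.253% and 0.044% at 24 h, and 1.13% and 3.05% at 72 h. At an unadjusted p under 0.05, 0 members were higher and 1 was lower at 2 h, against 3.94% and 4.49% of all genes. At 8 h 6 members were higher and 3 lower by that measure, against 4.09% and 11.6% of all genes. At 72 h 4 were higher and 6 lower, against 7.24% and 14.4% of all genes. Arrays are called separated here where all 3 DEHP arrays lay above (upward) or below (downward) all 3 corn oil arrays. At 2 h 0 members were separated upward and 1 downward, beside 4.67% and 6.72% of all genes. At 8 h 10 members were separated upward and 3 downward, beside 5.44% and 13.1% of all genes. At 72 h these counts were 8 and 7, beside 10.1% and 18.1% of all genes. The 95% confidence interval of the difference lay within a 2-fold change in either direction for 44 of 44 members at every time. It lay within 1.5-fold for 44 members at 2 h and for 40 at each later time. Of the 18194 genes, 17891, 17815, 17981 and 17785 lay within 2-fold at 2, 8, 24 and 72 h. Within 1.5-fold there were 16755, 16051, 16904 and 15674, so most genes shared these bounds.

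**Figure D1:**
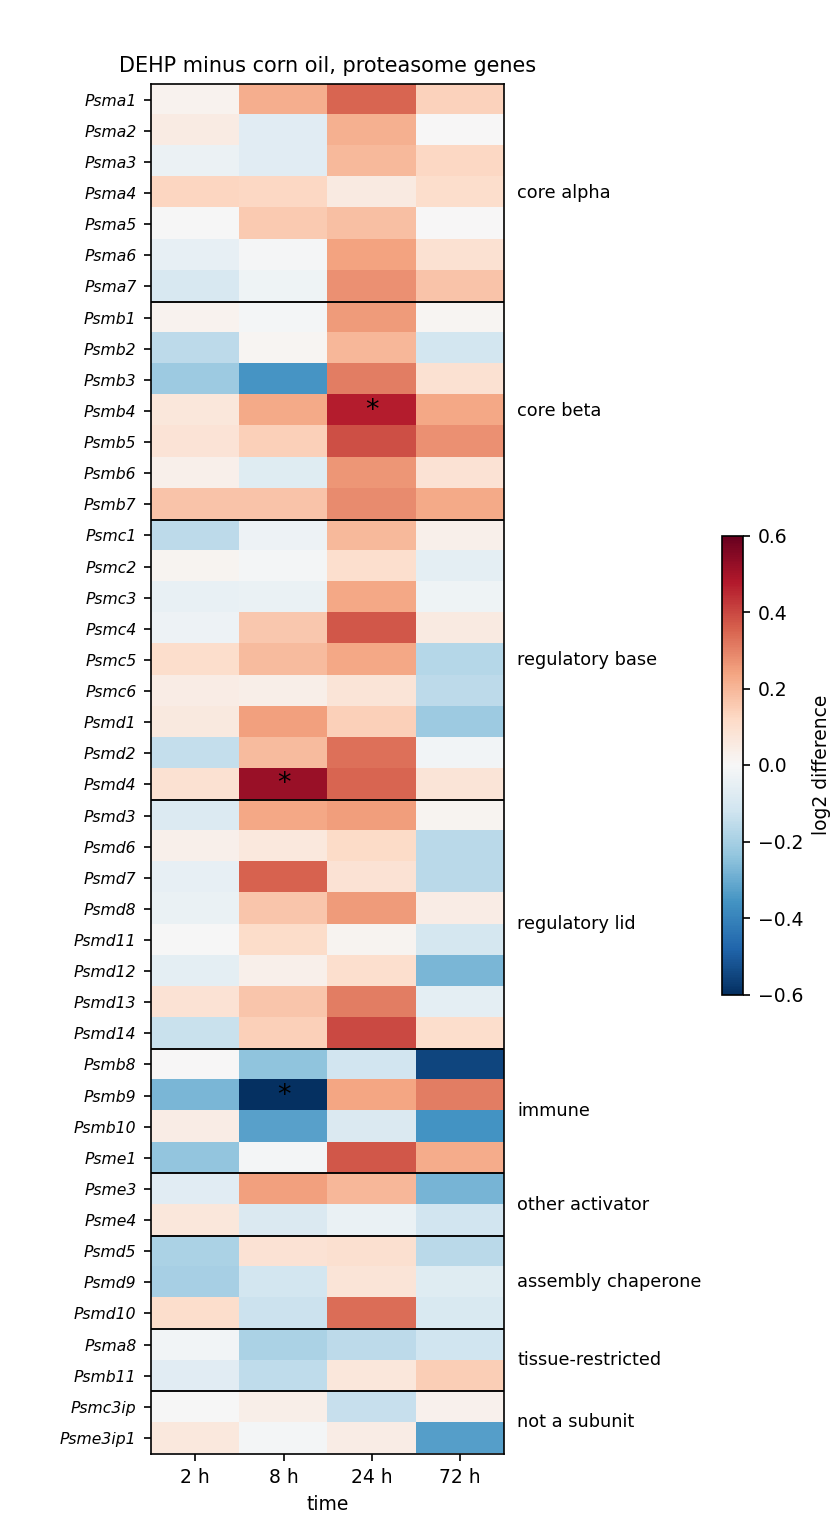
Difference in mean log2 signal, DEHP minus corn oil (3 arrays per group), for each of the 44 genes (rows, by class) at each time (columns). Red is higher and blue is lower in DEHP livers, and asterisks mark the 3 values with an adjusted p under 0.05 (Psmd4 and Psmb9 at 8 h, Psmb4 at 24 h).

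An F test over the 4 times asked whether a gene responded to DEHP at any of them. It called 5 members, Psmb4 (adjusted p = 0.0077), Psmb5 (0.0175), Psmb9 (0.0188), Psmd14 (0.0348) and Psmd4 (0.00665), beside 6.46% of all genes. Psmb4 and Psmb5 belong to the core, Psmd4 and Psmd14 to the regulatory particle, and Psmb9 to the immunoproteasome. With each of the 24 arrays left out in turn, Psmb4 and Psmd4 were called in 24 of 24 fits, Psmb5 and Psmb9 in 23 and Psmd14 in 18. Psmb5 was lost without DEHP replicate 2 at 24 h and Psmb9 without DEHP replicate 3 at 8 h. Psmd14 was lost without any of 6 arrays, which were replicates 1 and 2 of both groups at 24 h, DEHP replicate 1 at 8 h and DEHP replicate 3 at 72 h.

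**Figure D2:**
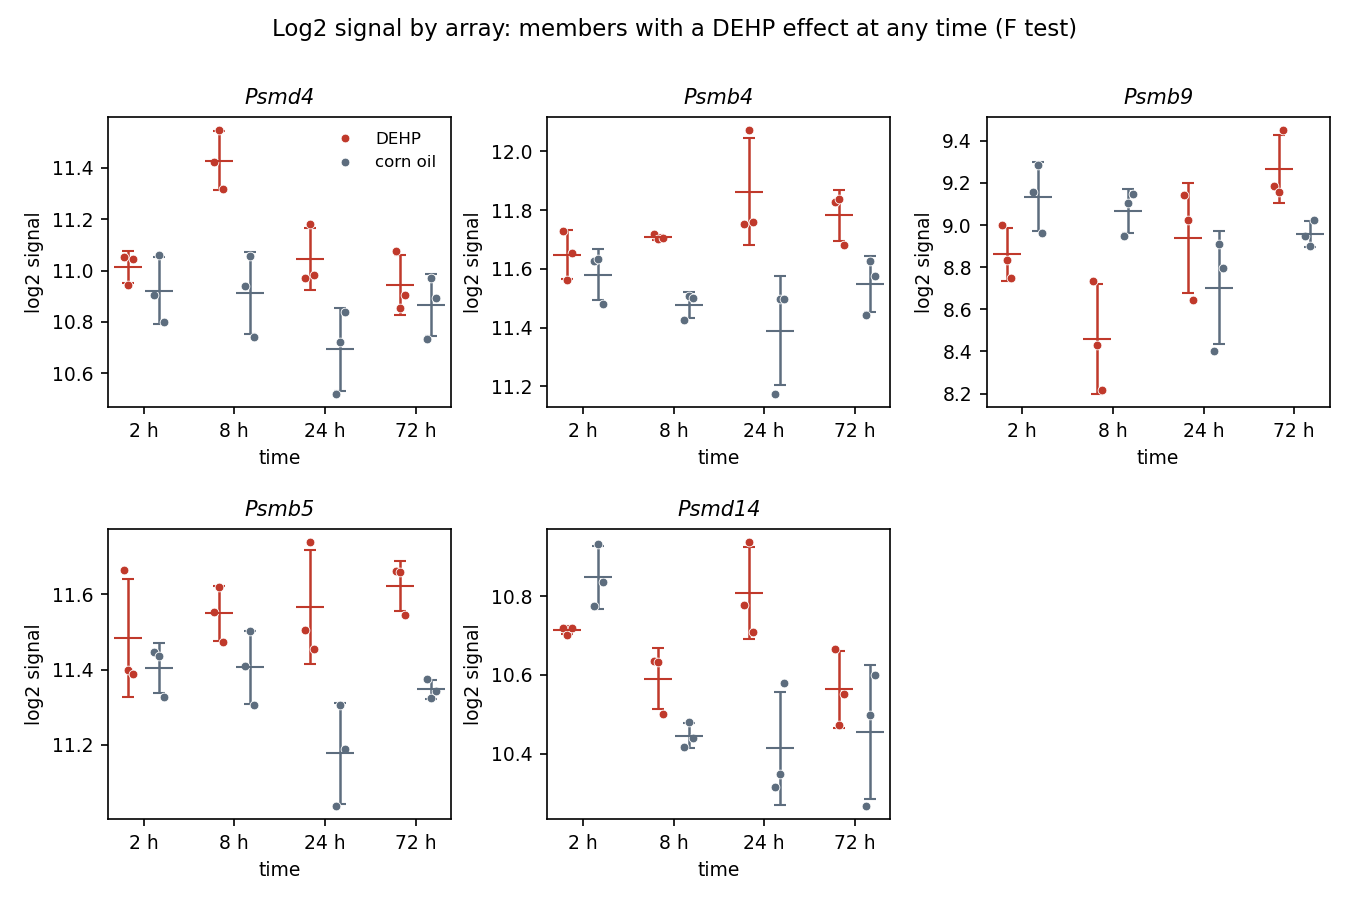
Log2 signal of the 5 genes that passed the F test for a DEHP effect at any time, by time. Points are single arrays, and bars are the mean ± SD of 3 arrays (DEHP red, left; corn oil grey, right). Psmd4 is separated at 8 h and Psmb4 at 8, 24 and 72 h, and Psmb9 lies below corn oil at 8 h and above it at 72 h.

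Among the core subunits, Psmb4, a structural beta subunit beside the active ones, rose at 24 h. Its log2 signal at 24 h was 11.75, 12.07 and 11.76 in DEHP livers, against 11.17, 11.50 and 11.50 in corn oil livers. All DEHP arrays lay above all corn oil arrays, and DEHP replicate 2 and corn oil replicate 1 were the extremes. The difference was 0.47 ± 0.10 (SE, n = 3 per group), a 1.39-fold level, with a limma adjusted p of 0.0275. The call ended without corn oil replicate 1 (0.37, adjusted p = 0.24) or without DEHP replicate 2 (0.37, adjusted p = 0.362), and the difference was 0.37 to 0.53 over the 6 fits that left out an array of that time. It also ended with the mean of all Psmb4 probe sets (adjusted p = 0.201), in the 6 arrays of 24 h alone (0.456) and, by a narrow margin, without both 8 h arrays numbered 14 (0.0504). A second Psmb4 probe set differed by 0.38 at 24 h.

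Psmb4 was also separated between the groups at 8 h and at 72 h without reaching the threshold. At 8 h the DEHP arrays read 11.72, 11.70 and 11.70 and the corn oil arrays 11.43, 11.51 and 11.50, a difference of 0.23 (adjusted p = 0.223). At 72 h the DEHP arrays read 11.83, 11.84 and 11.68 and the corn oil arrays 11.44, 11.63 and 11.58, also a difference of 0.23 (adjusted p = 0.165).

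Psmb5 carries the chymotrypsin-like active site. At 24 h its signal was 11.51, 11.74 and 11.45 in DEHP livers, against 11.04, 11.31 and 11.19 in corn oil livers, a difference of 0.39 ± 0.09 (SE, adjusted p = 0.102). At 72 h it was 11.66, 11.66 and 11.54 in DEHP livers, against 11.37, 11.32 and 11.34 in corn oil livers, a difference of 0.27 ± 0.09 (SE, adjusted p = 0.091). The groups did not overlap at either time, although neither single time passed the threshold. Without corn oil replicate 2 Psmb5 was called at 24 h (0.45, adjusted p = 0.0436). That was the only call in the 6 fits that left out an array of 24 h, whose adjusted p reached 0.797.

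Psmb7, with the trypsin-like site, read 11.94, 11.91 and 11.94 in DEHP livers at 24 h, against 11.59, 11.67 and 11.69 in corn oil livers (0.28). It was also separated at 8 and 72 h, by 0.17 and 0.23, and the 8 h value was 0.08 without DEHP replicate 1. Its difference of 0.17 at 2 h was the highest of any member at that time, with 12.03, 11.78 and 12.27 in DEHP livers, against 11.86, 11.91 and 11.80 in corn oil livers, which overlap. Psmb6, with the caspase-like site, read 10.81, 10.997 and 10.84 in DEHP livers at 24 h, against 10.48, 10.72 and 10.66 in corn oil livers. It was separated then by 0.26 and overlapped at the other times. Of these Psmb7 and Psmb6 differences, 0 passed the threshold.

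Over the whole core, all 14 subunits had a difference above 0 at 24 h, from 0.05 (Psma4) to 0.47 (Psmb4), with a median of 0.26. At 72 h 13 of 14 did, with a median of 0.10, and Psmb2 was the exception at -0.11. At 2 h 8 of 14 lay above 0 (median 0.02), and at 8 h 7 of 14 (median 0.00). Over all genes, 43.2%, 42.6%, 48.9% and 42.3% lay above 0 at 2, 8, 24 and 72 h. The lowest core value was that of the beta subunit Psmb3 at 8 h, with 11.07, 11.03 and 10.68 in DEHP livers, against 11.21, 11.55 and 11.09 in corn oil livers. Its arrays were separated downward (-0.36, adjusted p = 0.255), while its second probe set differed by 0.09 at that time. Without corn oil replicate 2 the Psmb3 difference was -0.22. The alpha and beta rings had like medians at 24 h, 0.21 and 0.28. Psma5, an alpha subunit, differed by -0.00, 0.16, 0.18 and 0.00 at 2, 8, 24 and 72 h, with overlapping arrays at each time. At 24 h Psma5 read 10.80, 10.95 and 10.70 in DEHP livers, against 10.44, 10.69 and 10.77 in corn oil livers.

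In the regulatory particle, Psmd4 rose at 8 h. Psmd4 is the ubiquitin receptor of the base that binds chains through its ubiquitin-interacting motifs. At 8 h its log2 signal was 11.42, 11.55 and 11.32 in DEHP livers, against 10.94, 11.05 and 10.74 in corn oil livers. The lowest DEHP array lay above the highest corn oil array. The difference was 0.52 ± 0.10 (SE, n = 3 per group), a 1.43-fold level, with a limma adjusted p of 0.00483.

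The Psmd4 call held in all 6 fits that left out 1 array of that time (0.43 to 0.59, adjusted p 0.00534 to 0.0348), corn oil replicate 2 among them. It was lost without both arrays numbered 14 (0.37, adjusted p = 0.105). Of the 3 Psmd4 probe sets, a second differed by 0.55 at 8 h and the third by 0.08. At 24 h the arrays of Psmd4 were again separated, 10.97, 11.18 and 10.98 in DEHP livers, against 10.52, 10.72 and 10.84 in corn oil livers. That difference, 0.35, did not pass the threshold (adjusted p = 0.294). At 2 and 72 h the groups overlapped, with differences of 0.09 and 0.08.

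Psmd14, the deubiquitinating enzyme of the lid, passed the F test over the 4 times and was nearest to the threshold at 24 h. Its signal was then 10.78, 10.94 and 10.71 in DEHP livers, against 10.31, 10.35 and 10.58 in corn oil livers, a difference of 0.39 ± 0.09 (SE, adjusted p = 0.0852). The groups did not overlap at 24 h, and Psmd14 was called in 1 of the 6 fits that left out an array of that time, the one without corn oil replicate 3 (0.48, adjusted p = 0.0407). In the other 5 the adjusted p reached 0.654. At 2 h Psmd14 was the only member whose DEHP arrays all lay below the corn oil arrays, 10.72, 10.70 and 10.72, against 10.77, 10.93 and 10.84 in corn oil livers (difference -0.13).

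The ATPase Psmc4 was separated at 24 h, with 10.06, 10.22 and 10.07 in DEHP livers, against 9.48, 9.88 and 9.86 in corn oil livers (0.37, adjusted p = 0.204). Without corn oil replicate 1 the Psmc4 difference was 0.24. The large base scaffold Psmd1 was separated at 8 h, with 10.62, 10.62 and 10.72 in DEHP livers, against 10.45, 10.37 and 10.40 in corn oil livers (0.25, adjusted p = 0.211). At 72 h Psmd1 differed by -0.22 with overlapping arrays, and over the 6 fits that left out an array of that time it was -0.36 to -0.14. Psmd1 was called lower in 1 of them, without corn oil replicate 1 (adjusted p = 0.0274), and the highest adjusted p was 0.565. The lid subunit Psmd11 had differences of -0.00, 0.11, 0.02 and -0.10 at 2, 8, 24 and 72 h, with overlapping arrays at each time. Its other probe sets differed by 0.09 to 0.41 at 8 h and by -0.22 to 0.33 at 24 h. The value of 0.41 (SE 0.11) came from a probe set with a mean signal of 10.21. At 24 h Psmd11 read 11.99, 12.19 and 11.92 in DEHP livers, against 12.04, 11.93 and 12.08 in corn oil livers.

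The 17 subunits of the regulatory particle had a median difference of -0.03 at 2 h, 0.16 at 8 h, 0.23 at 24 h and -0.06 at 72 h. The number above 0 was 7, 14, 17 and 6. At 8 h all 8 lid subunits lay above 0, from 0.03 (Psmd12) to 0.36 (Psmd7). Sem1, a small lid component whose symbol lies outside the rule, differed by -0.27 at 8 h. At 72 h 4 of the 17 (23.5%) were separated downward and 0 upward, against 18.1% and 10.1% of all genes.

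The 24 h pattern covered both particles. All 31 constitutive subunits had a difference above 0, with a median of 0.24 beside -0.00 for all genes. At an unadjusted p under 0.05, 18 of the 31 were higher and 0 lower, against 4.15% and 3.98% of all genes. The arrays of 14 were separated upward and of 0 downward, against 6.38% and 7.47% of all genes. After adjustment over all genes only Psmb4 was called.

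At 24 h 1 array of each group stood at the extremes. Corn oil replicate 1 was the lowest of the 6 arrays of 24 h for 25 of the 31 subunits, and DEHP replicate 2 was the highest for 23. The subunits also varied together within groups: over their 465 pairs the median correlation of deviations from the group mean was 0.49 (genes of the same arrays, which are not independent). The mean of the 31 subunits, as a deviation from each gene's mean over 24 arrays, was 0.08, 0.21 and -0.01 in DEHP livers at 24 h, against -0.28, -0.12 and -0.01 in corn oil livers. The third arrays of both groups thus stood at the same level, DEHP replicate 3 just above corn oil replicate 3. Without corn oil replicate 1 the median difference was 0.15 and 30 of 31 lay above 0. Without DEHP replicate 2 it was 0.18, also with 30 of 31 above 0.

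Of the corn oil livers of 24 h, replicates 1 and 2 were themselves low. Their means of the 31 subunits were -0.28, -0.12 and -0.01, against -0.03, 0.07 and -0.01 in corn oil livers at 2 h. Against corn oil at 2 h, 28 of the 31 constitutive subunits lay below at 24 h (3 above, median -0.14). By the same measure 13 lay above at 8 h (median -0.06) and 14 at 72 h (median -0.01). The share of all genes was not counted for these comparisons, and they were not repeated with arrays left out. Across the 4 corn oil groups an F test called 1 member, Psmd14 (adjusted p = 0.0145), beside 3.55% of all genes. The call was lost in 2 of 12 fits, those that left out the second or the third corn oil array of 2 h. Its difference from corn oil at 2 h was -0.40 at 8 h, -0.43 at 24 h and -0.39 at 72 h.

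**Figure D3:**
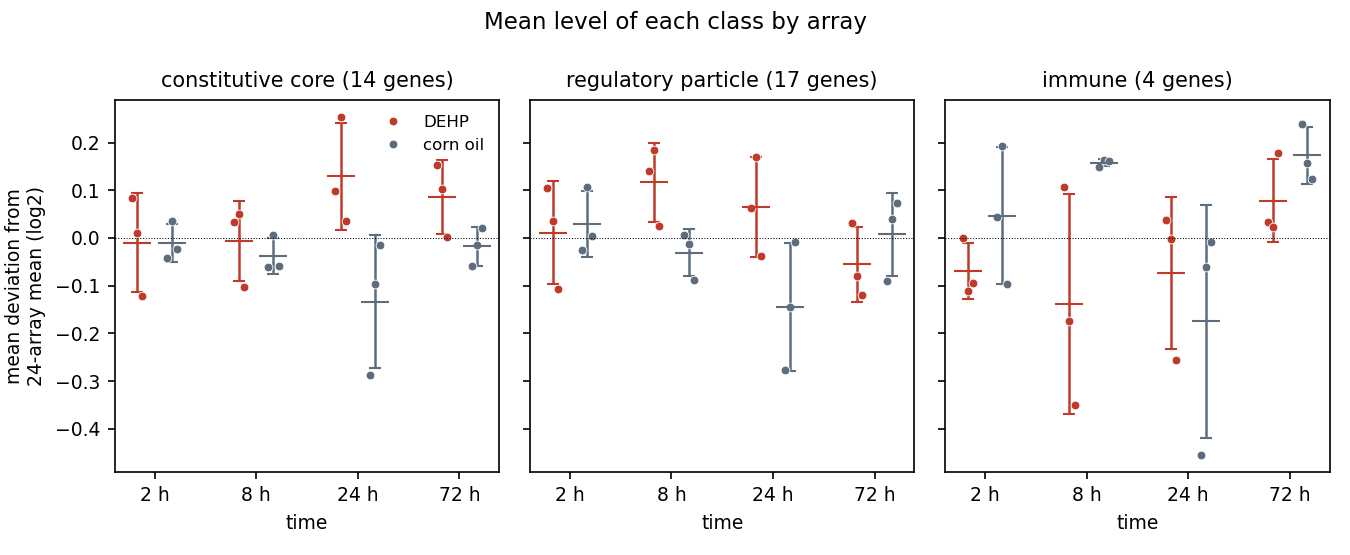
Mean level of the constitutive core (14 genes), the regulatory particle (17 genes) and the immune subunits (4 genes) in each array, as the deviation of log2 signal from each gene's mean over 24 arrays. Points are arrays and bars the mean ± SD of 3 arrays (DEHP red, left; corn oil grey, right). At 24 h the lowest core and regulatory means are those of corn oil replicate 1, at -0.29 and -0.28.

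The balance of core against regulatory subunits was separated between the groups at 8 and 72 h. In each array the mean deviation of the regulatory particle was taken from that of the core. At 8 h this value was -0.11, -0.14 and -0.13 in DEHP livers, against -0.07, 0.02 and 0.03 in corn oil livers, so that every DEHP array had relatively less core. At 72 h it was 0.12, 0.18 and 0.12 in DEHP livers, against 0.03, -0.05 and -0.05 in corn oil livers, so that every DEHP array had relatively more core. The difference was -0.12 at 8 h, with -0.09 without the arrays numbered 14 and -0.10 without corn oil replicate 2. It was 0.17 at 72 h and 0.19 without corn oil replicate 1. Separated groups stay separated when arrays are left out, so these repeats show only the sizes. At 2 h the values were -0.02, -0.03 and -0.02 in DEHP livers, against -0.02, -0.07 and -0.03 in corn oil livers. At 24 h they were 0.04, 0.08 and 0.07 in DEHP livers, against -0.01, 0.05 and -0.01 in corn oil livers. The groups overlapped at 2 and 24 h. The classes come from textbook roles, but the contrast was chosen with these data known and is given without a test.

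The 4 immune subunits all lay below corn oil at 8 h, with a median of -0.28 and differences of -0.61 (Psmb9) to -0.01 (Psme1). At 2, 24 and 72 h 2 of the 4 lay above 0, with medians of -0.12, 0.07 and -0.07. Their mean deviation at 8 h was 0.11, -0.17 and -0.35 in DEHP livers, against 0.15, 0.16 and 0.16 in corn oil livers, without overlap. The median at 8 h was -0.16 without DEHP replicate 3, and that at 24 h was -0.06 without corn oil replicate 1.

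Psmb9, the interferon-inducible counterpart of Psmb6, fell at 8 h. Its log2 signal was 8.74, 8.43 and 8.21 in DEHP livers, against 8.95, 9.11 and 9.15 in corn oil livers. The groups did not overlap. The difference was -0.61 ± 0.14 (SE, n = 3 per group), a level 0.656 times that of corn oil livers, with a limma adjusted p of 0.0148.

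The call on Psmb9 was less firm than that on Psmd4. It was lost without corn oil replicate 2 (adjusted p = 0.0614), corn oil replicate 3 (0.0595) or DEHP replicate 3 (0.123), and without both arrays numbered 14 (0.11). The difference over the 6 fits that left out 1 array of that time was -0.75 to -0.49. Psmb9 was measured by 1 probe set.

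At 72 h Psmb9 stood on the other side of corn oil, with 9.19, 9.16 and 9.45 in DEHP livers, against 8.95, 8.90 and 9.02 in corn oil livers. The arrays were separated, but the difference of 0.31 did not pass the threshold (adjusted p = 0.215). At 2 h it had the lowest difference of any member, -0.27, with 8.998, 8.84 and 8.75 in DEHP livers, against 9.16, 9.28 and 8.96 in corn oil livers. At 24 h Psmb9 differed by 0.23, and by 0.08 without corn oil replicate 1. The arrays overlapped at both times. The F test for a DEHP effect that differs between times called Psmb9 (adjusted p = 0.0294) and no other member, beside 2.08% of all genes. It was called in 17 of the 24 fits that left out 1 array, and was lost without any of 7 arrays: replicates 2 and 3 of both groups at 8 h, DEHP replicate 2 at 24 h, corn oil replicate 2 at 72 h and DEHP replicate 3 at 72 h. The effect at 72 h exceeded that at 8 h by 0.92 ± 0.20 (SE, adjusted p = 0.0237).

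Psmb8, the counterpart of Psmb5, had its largest difference at 72 h, where its signal was 8.80, 8.82 and 9.08 in DEHP livers, against 9.54, 9.47 and 9.34 in corn oil livers. The groups did not overlap, and the difference was -0.55 ± 0.16 (SE, adjusted p = 0.0548), just outside the threshold. It was called lower among genes above the 40th percentile of mean signal (adjusted p = 0.0419) and in a fit of the 6 arrays of 72 h alone (adjusted p = 0.0264). It was called in 0 of the 6 fits that left out an array of 72 h (adjusted p 0.0768 to 0.179), corn oil replicate 1 among them. A second and much dimmer Psmb8 probe set differed by -0.13 at 72 h. Psmb10, the counterpart of Psmb7, read 9.26, 9.41 and 9.41 in DEHP livers at 72 h, against 9.90, 9.66 and 9.58 in corn oil livers. It differed by -0.36 ± 0.12 (SE, adjusted p = 0.0834) without overlap, and by -0.27 without corn oil replicate 1. At 8 h Psmb10 was also separated, with 9.60, 9.37 and 9.10 in DEHP livers, against 9.70, 9.69 and 9.65 in corn oil livers (-0.32, adjusted p = 0.139). Without DEHP replicate 3 the 8 h difference was -0.20.

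**Figure D4:**
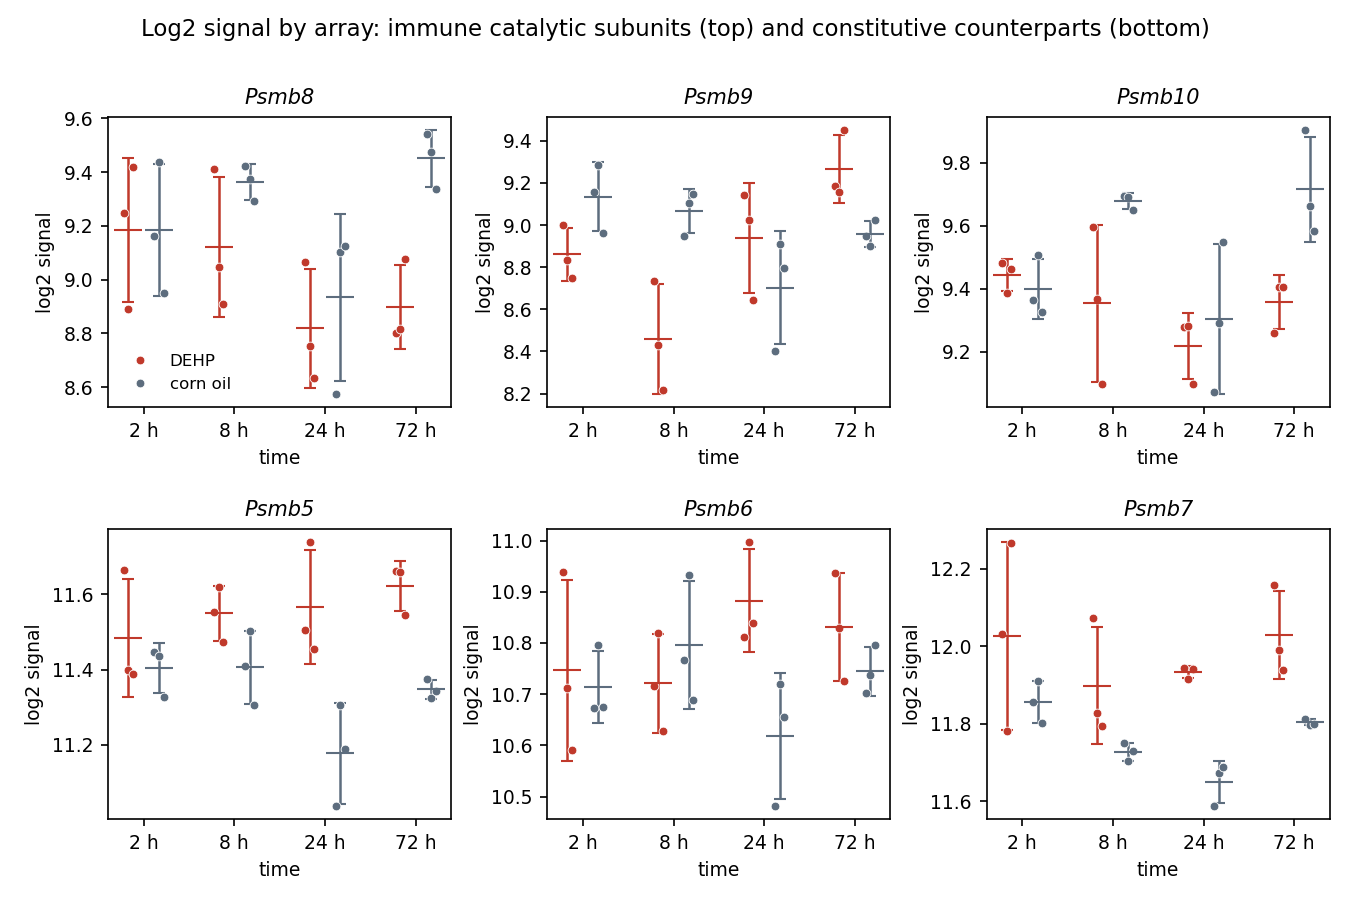
Log2 signal of the immune catalytic subunits Psmb8, Psmb9 and Psmb10 (top) above their constitutive counterparts Psmb5, Psmb6 and Psmb7 (bottom), by time. Points are single arrays and bars the mean ± SD of 3 arrays (DEHP red, left; corn oil grey, right), and each panel has its own scale. At 72 h Psmb8 and Psmb10 lie below corn oil without overlap, and Psmb9 lies above it.

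Within arrays, the log2 ratio of each immune subunit to its counterpart was compared between the groups. The ratio of Psmb8 to Psmb5 differed by -0.08, -0.38, -0.50 and -0.83 at 2, 8, 24 and 72 h, without overlap at 8 and 72 h. The ratio of Psmb10 to Psmb7 differed by -0.13, -0.49, -0.37 and -0.58, without overlap at 8, 24 and 72 h. The ratio of Psmb9 to Psmb6 differed by -0.31, -0.53, -0.03 and 0.22, without overlap at 2, 8 and 72 h. Some margins were narrow, as deviations from the mean ratio over all arrays show. For Psmb9 to Psmb6 at 72 h the lowest DEHP value was 0.0836, against a highest corn oil value of 0.0782. For Psmb8 to Psmb5 at 8 h the highest DEHP value was 0.185, against a lowest corn oil value of 0.197. The share of separated ratios over all gene pairs was not counted. At 8 h all 3 ratios were thus lower in DEHP livers, and at 72 h those of Psmb8 and Psmb10 were lower while that of Psmb9 was higher. Groups that do not overlap keep their order when arrays are left out, so the repeats show only the sizes. For Psmb8, Psmb9 and Psmb10 in turn, the 8 h differences were -0.29, -0.38 and -0.55 without the arrays numbered 14. Without corn oil replicate 2 at 8 h they were -0.42, -0.58 and -0.48. The 72 h differences were -0.79, 0.24 and -0.50 without corn oil replicate 1 at 72 h. These ratios are given without a test.

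Immune subunits are expressed by macrophages as well as by hepatocytes, and bulk RNA cannot tell fewer cells of a type from less RNA per cell. At 72 h the mean log2 signal of 6 macrophage markers was 7.96, 7.97 and 8.19 in DEHP livers, against 8.73, 8.36 and 8.72 in corn oil livers. Of these markers 3 were called lower and 6 of 6 were below 0 (median -0.59). The 5 endothelium markers were all below 0 at 72 h (median -0.39), with 4 separated downward and 0 called. The 3 neutrophil markers had a median of -0.54 at 72 h, with 2 of 3 below 0 and 0 called. Their mean was 6.03, 6.01 and 5.92 in DEHP livers, against 7.60, 5.90 and 6.04 in corn oil livers. Only corn oil replicate 1 stood above the DEHP arrays by more than a small amount. The part of these markers in the Psmb8 and Psmb10 values at 72 h was not tested. At 8 h the macrophage, endothelium and neutrophil markers had medians of -0.03, -0.07 and -0.19, with 0 called. The macrophage mean was then 8.25, 8.30 and 8.37 in DEHP livers, against 8.55, 7.96 and 8.56 in corn oil livers. For endothelium it was 8.18, 8.18 and 8.14 in DEHP livers, against 8.38, 7.51 and 8.66 in corn oil livers. In both lists corn oil replicate 2 was the lowest array, and the other corn oil arrays lay above all DEHP arrays. The part of these markers in the 8 h values was not tested. The 6 lymphocyte markers had medians of 0.03 at 8 h and -0.04 at 72 h, with 0 called at either time.

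Psme1, a subunit of the interferon-inducible activator, was separated upward at 24 and 72 h. At 24 h it read 11.15, 11.42 and 11.09 in DEHP livers, against 10.62, 10.94 and 10.99 in corn oil livers (0.37, adjusted p = 0.327). At 72 h it read 11.38, 11.20 and 11.27 in DEHP livers, against 11.06, 11.08 and 11.04 in corn oil livers (0.22, adjusted p = 0.262). Its partner Psme2 shares its probe set with another symbol and is not described here. Psme3, the nuclear activator, read 8.47, 8.42 and 8.53 in DEHP livers at 8 h, against 8.28, 8.06 and 8.33 in corn oil livers. It was thus separated upward, by 0.25 (adjusted p = 0.168), and by 0.16 without corn oil replicate 2. At 72 h it read 8.17, 8.11 and 8.16 in DEHP livers, against 8.24, 8.54 and 8.49 in corn oil livers, and was separated downward (-0.28, adjusted p = 0.094). Psme3 was called lower in 1 of the 6 fits that left out an array of 72 h, without corn oil replicate 1 (-0.37, adjusted p = 0.0301), and the highest adjusted p was 0.32. Psme4, another nuclear activator, differed by 0.07, -0.09, -0.04 and -0.12 at 2, 8, 24 and 72 h with overlapping arrays. Its sign at 8 h depended on the probe set. Those with mean signals of 10.46 and 10.07 differed by 0.05 and 0.33 then, and the dimmer ones by -0.13 to -0.01. At 72 h Psme4 read 10.40, 10.54 and 10.33 in DEHP livers, against 10.37, 10.62 and 10.62 in corn oil livers.

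The remaining genes gave 0 calls. The assembly chaperones Psmd5, Psmd9 and Psmd10 differed by -0.20 to 0.33 over the 4 times, and Psmd10 at 24 h was the highest of these values with overlapping arrays. Psma8, the testis subunit, was the only member under the 40th percentile of mean signal. Its arrays lay between 5.40 and 6.14 in every group and overlapped at each time. Psmb11, the thymus subunit, differed by -0.15 to 0.15 and Psmc3ip, a recombination factor, by -0.14 to 0.04, both with overlapping arrays at each time. Psme3ip1, which encodes a protein that binds the Psme3 activator, differed by -0.33 at 72 h (adjusted p = 0.134). It was called lower without corn oil replicate 1 (-0.52, adjusted p = 0.0109) and was -0.18 without corn oil replicate 2.

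Genes that act with the proteasome were read beside the members. Of 15 measured assembly and associated factors, 0 were called at any of the 4 times, with medians of -0.03, 0.05, 0.11 and -0.02. They include the core maturation factor Pomp, which differed by 0.18 at 24 h, and the chaperone Psmg1, which differed by 0.22, or 0.12 without corn oil replicate 1. The shuttle-related factors Zfand5 and Zfand2a differed by 0.41 and 0.47 at 8 h, with adjusted p of 0.0555 and 0.153, and Zfand2a by 0.17 without the arrays numbered 14. In the other direction, Sem1 (-0.27, adjusted p = 0.126) and the core assembly chaperone Psmg3 (-0.24, adjusted p = 0.181) were separated downward at 8 h. Sem1 was called in 1 of 6 fits that left out an array (adjusted p = 0.0496) and was -0.18 without DEHP replicate 3. Of the ubiquitin genes and their activating enzymes, 1 of 6 was measured, Uba6, with differences of -0.14 to -0.02.

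Nfe2l1, the transcription factor that raises constitutive subunit genes, rose at 8 h. Its signal was 10.17, 9.93 and 9.89 in DEHP livers, against 9.38, 9.52 and 9.47 in corn oil livers, without overlap. The difference was 0.54 (limma adjusted p = 0.0027), and it was called in 6 of 6 fits that left out an array and without both arrays numbered 14 (adjusted p = 0.0165). At 2 h it was 0.36 (adjusted p = 0.122), at 24 h 0.04 and at 72 h -0.12. The constitutive subunits had medians of -0.00, 0.12, 0.24 and 0.02 at 2, 8, 24 and 72 h. The 8 h median was 0.0576 without both arrays numbered 14 and 0.0776 without DEHP replicate 2. Among the 7 measured regulators, Stat3, a cytokine-activated transcription factor, was the other call at 8 h and was lower (-0.69, adjusted p = 0.0492). Stat3 was called in 2 of the 6 fits that left out an array of 8 h, with an adjusted p of up to 0.222.

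Of 13 measured targets of the oxidant-responsive factor Nrf2, 2 were higher at 8 h and 0 lower. These were Srxn1, which encodes sulfiredoxin (1.12), and Hmox1, which encodes haem oxygenase (0.58). Srxn1 was called in 6 of 6 fits that left out an array of 8 h and Hmox1 in 3, and Hmox1 was not called without both arrays numbered 14 (adjusted p = 0.0947). At 72 h 2 were higher, among them Gsta2 (1.75, or 1.14 without corn oil replicate 1), and 3 were lower, among them Hmox1 (-0.67) and Txnrd1 (-0.40). Of the 6 fits that left out an array of 72 h, Gsta2 and Hmox1 were called in 6 and Txnrd1 in 2. Of 15 measured genes of antigen presentation and the interferon response, 0 were called at any time. At 8 h 8 of the 15 lay above 0 (median 0.04), from -0.42 (Tap1) to 0.37 (Ifit1). By then 2 were separated downward and 0 upward, beside 13.1% and 5.44% of all genes. Tap1, which encodes a peptide transporter, differed by -0.42 at 8 h (adjusted p = 0.098), with 8.01, 7.74 and 7.70 in DEHP livers, against 8.16, 8.34 and 8.22 in corn oil livers. Its arrays did not overlap at that time.

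Tap1 is the neighbour of Psmb9. In the RefSeq annotation of GRCm38.p6 Psmb9 lies at chr17:34182030-34187330 on the minus strand and Tap1 at chr17:34187556-34197225, head to head with 225 bases between them. The promoters of the 3 members called at a single time are shown because these members carry the calls. Each is the 250 bases before the start of the gene in RefSeq (GRCm38.p6), 5′ to 3′ on the gene's strand, which is minus for all 3. Psmd4 covers chr3:95042615-95042864, Psmb4 chr3:94886959-94887208 and Psmb9 chr17:34187331-34187580, the last spanning the gap to Tap1. Capitals mark matches to the motifs searched.
Psmd4: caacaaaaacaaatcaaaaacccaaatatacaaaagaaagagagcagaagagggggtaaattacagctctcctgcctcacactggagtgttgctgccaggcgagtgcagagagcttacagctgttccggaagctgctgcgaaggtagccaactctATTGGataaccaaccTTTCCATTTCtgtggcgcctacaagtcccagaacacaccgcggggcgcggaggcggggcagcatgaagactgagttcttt
Psmb4: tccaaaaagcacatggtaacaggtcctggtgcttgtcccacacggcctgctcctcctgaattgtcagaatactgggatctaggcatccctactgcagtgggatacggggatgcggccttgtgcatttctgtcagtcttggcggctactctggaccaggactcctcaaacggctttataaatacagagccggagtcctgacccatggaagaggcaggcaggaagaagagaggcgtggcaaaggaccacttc
Psmb9: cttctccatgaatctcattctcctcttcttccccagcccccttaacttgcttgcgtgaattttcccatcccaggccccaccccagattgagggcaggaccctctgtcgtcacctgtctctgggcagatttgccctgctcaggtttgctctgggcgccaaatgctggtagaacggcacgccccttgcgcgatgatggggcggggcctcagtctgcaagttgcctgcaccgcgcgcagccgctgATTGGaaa

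The Psmd4 promoter held a CCAAT box (ATTGG on this strand, 95 to 91 bases before the start) and a match to the interferon response element (TTTCCATTTC, 80 to 71 bases before it). The Psmb9 promoter held a CCAAT box 8 to 4 bases before its start, and the Psmb4 promoter held no match. A match is a description of letters and not a bound site. Of the 44 members, 37 had a promoter in the RefSeq table, all but Psma8, Psmb1, Psmb2, Psmb7, Psmc3, Psmd3 and Psmd7.

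Each motif was searched on both strands over these 250 bases in 27025 promoters, and overlaps between motifs were not removed. The antioxidant response element, TGACNNNGC or TGAGNNNGC, through which Nfe2l1 and Nrf2 act, was in 11 of the 37 member promoters (29.73%) and in 22.849% of all promoters. It was found in Psmb5 and Psmb6 but not in Psmd4, Psmb4 or Psmb9. The CCAAT box (CCAAT) was in 15 of 37 (40.541%) and in 34.464% of all promoters. The interferon response element (GAAA repeated after 2 bases of any kind) was in Psmb3, Psmd4 and Psmd9, and in 3.038% of all promoters. The gamma-activated sequence (TTCNNNGAA) was in Psmb8 alone of the members and in 7.179% of all promoters. The PPAR response element (AGGTCA repeated after 1 base of any kind) was in 0 member promoters and 0.037% of all. The heat shock element (GAA, TTC and GAA with 2 bases of any kind between each) was in 0 member promoters and 0.4% of all.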

How the data were processed

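The data are 24 Affymetrix arrays, each with 45101 probe sets, of mouse liver RNA. Per the submitters' processing notes, the authors computed the deposited log2 values with RMA, whose version is not given in the sources used here. Probe sets were joined to symbols through the platform annotation: 34958 carried 1 symbol, 932 several, and 9211 had no entry. Each of 18194 genes was read on its probe set with the highest mean, and 91 probe sets belonged to the 44 members. Groups came from the labels, whose design text names 6 mice without tying them to arrays. The number of arrays, which have no depth of their own, limits the precision.

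A model of the 8 group means over 24 arrays was fitted with limma 3.58.1 in R 4.3.3 (16 residual and 6.21 prior degrees of freedom), tested on simulated data first. Moderated t tests compared DEHP with corn oil at each time, and F tests covered the 4 contrasts jointly, their differences between times, and the corn oil times. P-values were adjusted by Benjamini-Hochberg over 18194 genes and called under 0.05. The members, classes, lists, contrasts and motifs were chosen with earlier results of these data known. Named with array values at 1 or more times were the called members, the largest rise and fall where none was called, the catalytic pairs, the activators, and Psma5, Psmc4, Psmd1, Psmd4, Psmd11 and Psmd14. Other genes were named as range ends, exceptions or list examples after their values were seen.

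Alternatives were the replicate number as a block, a filter at the 40th percentile, the mean of a gene's probe sets, median centring, a variance trend, an adjusted p under 0.01, and the 6 arrays of a time alone. Arrays were also left out singly and, for those numbered 14, together. Leaving out corn oil replicate 2 at 8 h with corn oil replicate 1 at 72 h, and all such repeats for the other pathway genes, ratios and class means, were added after seeing the data. Within a time, replicate numbers did not visibly pair DEHP with corn oil arrays. Of 12 pairs with the same number, 1 had correlated deviations above 0.1 (range -0.35 to 0.14), against 6 of 24 pairs with different numbers. Replicate 1 of every group has a lower RC number than the other replicates. Whether arrays of the same replicate number resemble each other across times was not tested.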

Additional observations from a re-analysis of the deposited data

Results flagged for a closer look

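Limma's F test over the 3 differences of the 4 contrasts asked whether the DEHP effect differed between times. It called 1 of 44 members, Psmb9 (adjusted p = 0.0294), beside 2.08% of all genes. The Psmb9 difference was -0.27, -0.61, 0.23 and 0.31 on the log2 scale at 2, 8, 24 and 72 h. Of these the 8 h value was called. The levels behind the 8 h value were 8.74, 8.43 and 8.21 in DEHP livers, against 8.95, 9.11 and 9.15 in corn oil livers. The pattern rests on 1 probe set and was lost in 7 of the 24 fits that left out 1 array.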

How the results depend on the processing

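With 3 arrays per group, differences of the size of Psmb4 were near the limit of what was called, and the 3 single-time calls were each lost under some alternative. The count at 8 h was 1 (Psmd4) at an adjusted p under 0.01 and also without corn oil replicate 2 at 8 h and corn oil replicate 1 at 72 h, and 0 without both arrays numbered 14. Without those arrays the median difference of the constitutive subunits at 8 h was 0.06 (0.0576 to 3 digits), the count for any time 3 and the count for a difference between times 0. The count at 24 h was 0 with the mean of all probe sets, at an adjusted p under 0.01, without both arrays numbered 14, and in the 6 arrays alone. The count at 72 h was 1 (Psmb8, lower) above the 40th percentile and in the 6 arrays alone, and 3 (Psmd1, Psme3 and Psme3ip1, lower) without corn oil replicate 2 at 8 h and corn oil replicate 1 at 72 h. At an adjusted p under 0.01 the count for any time was 2 (Psmb4 and Psmd4), that for a difference between times 0 and that for corn oil times 0. The cause of these shifts was not tested, except that a stricter threshold can only lower a count. With 1 array left out the counts were 0 to 0 at 2 h, 1 to 2 at 8 h, 0 to 2 at 24 h, 0 to 3 at 72 h (3 without corn oil replicate 1), 3 to 8 for any time, 0 to 3 for a difference between times and 0 to 3 for corn oil times. The constitutive medians were then -0.06 to 0.05, 0.08 to 0.16, 0.15 to 0.29 and -0.02 to 0.05 at 2, 8, 24 and 72 h. The replicate number as a block, whose pairing within a time the data do not bear out, left the counts at 0, 2, 1 and 0. The adjusted p of limma's moderated t test was then 0.00459 for Psmd4, 0.0188 for Psmb9 and 0.0267 for Psmb4. Of 640 values of single members and immune medians under the other settings, 628 kept their side of the threshold or moved by less than the spread. Most of these were never called. The other values were 8 that lost a call, all of them refits of the 3 single-time calls, and 4 that gained one. None of the called values changed direction. Of 92 member counts and constitutive medians under those settings, 16 moved beyond the margin set for them. With 1 array left out 22 of 108 did. Of the 23 members with several probe sets, 12, 10, 11 and 9 had 1 of the other sign at 2, 8, 24 and 72 h.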
